A study of Mus with 9 samples.

Results

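The genes examined are those of antigen presentation by the major histocompatibility complex (MHC). They were taken by name as every row of the count table whose symbol starts with H2-, together with 10 genes that serve the same pathways (B2m, Cd74, Ciita, Tap1, Tap2, Tapbp, Erap1, Rfx5, Rfxap and Rfxank). This gave 55 of the 55421 genes in the table, 45 of them with an H2- symbol. All 55 were found in the RefSeq annotation of GRCm38, the build named in the submitters' processing notes, where 45 are protein coding and 10 are pseudogenes. 48 lie in the MHC of chromosome 17 and 7 elsewhere, which are B2m on chromosome 2, Rfx5 and Rfxap on 3, Rfxank on 8, Erap1 on 13, Ciita on 16 and Cd74 on 18.

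RNA was sequenced from 9 samples described as left atrium of male wild-type C57BL/6J mice aged 8 to 10 weeks, with 3 libraries per group. The MI_ART mice had a myocardial infarction, made by permanent ligation of a coronary artery on the front of the left ventricle, and received artesunate, an artemisinin derivative, by intraperitoneal injection. The MI mice had the same infarction with vehicle, and the Sham mice had the operation without ligation, with vehicle. The labels conflict on the drug schedule, giving 25 mg/kg every day for 7 days after surgery in one place and 10 mg/kg every other day from 2 days before surgery to day 7 in another. They also conflict on the species (mice or rats) and the RNA extraction, and no harvest day is stated. Libraries are called MI_ART 1 to 3, MI 2 to 4 and Sham 1 to 3 by their group and the number in their titles, where the Sham libraries are titled CON with the suffix AF, which is not explained, and are placed in Sham by their treatment label. Triplets of values below follow that order. Whether the libraries of a group come from different animals is not stated, so the spread behind the p-values may be technical.

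MHC class I molecules are carried by nearly every nucleated cell. A heavy chain, encoded in mice by H2-K1 or H2-D1, pairs with the light chain beta-2 microglobulin (B2m) and holds a peptide from inside the cell for CD8 T cells to read. The peptides are pumped into the endoplasmic reticulum by the Tap1 and Tap2 transporter, trimmed by Erap1 and loaded with the help of tapasin (Tapbp). MHC class II molecules are pairs of an alpha and a beta chain, mainly on dendritic cells, macrophages and B cells, and show peptides from engulfed material to CD4 T cells. The invariant chain Cd74 guards their groove until H2-DM exchanges its remnant for a peptide, a step that H2-O restrains. Ciita is the master switch of class II transcription and is recruited by the RFX complex (Rfx5, Rfxap and Rfxank), which binds the promoters. In the healthy heart, class II is known mainly from resident macrophages and dendritic cells. Mice of the C57BL/6 strain carry a nonfunctional class II E alpha gene, so that only the A molecule reaches the cell surface.

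Levels are given in CPM, read counts scaled to a common library size after adjustment by edgeR's TMM factors, and fold changes are log2 values from edgeR. Total counts were 68046341 to 83685313 per library, which places 3 counts at 0.0322 to 0.0592 CPM. MI 4 differed from MI 2 and MI 3 by a chi-square of 448 and 356 per gene, while all other pairs of libraries within a group gave 52.2 to 99.5. It was the highest MI library for 30 of 36 tested members (83.3%), and for 42.2% of all tested genes. Atrial muscle transcripts (summed over Myl7, Myl4, Sln, Nppa and Bmp10) were present in all libraries but varied within groups, at 1301 to 12364 CPM in MI_ART, 13426 to 25075 CPM in MI and 1739 to 7321 CPM in Sham. Ventricular transcripts (Myl2, Myl3, Myh7, Irx4 and Hey2) were present too, at 2922 to 4474 CPM in MI_ART, 1657 to 3032 CPM in MI and 7577 to 8443 CPM in Sham. Every MI library lay above every MI_ART and Sham library in the atrial sum. In the ventricular sum every infarcted library lay below every Sham library. The mixture thus differed between groups as well. Its part in the results below was not tested and cannot be told apart from that of the treatment.

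Of the 55 members, 36 had enough counts to be tested and 19 did not. 12 had no count in any library (H2-Ea-ps, H2-M1, H2-M10.1, H2-M10.3, H2-M10.4, H2-M10.5, H2-M10.5-ps1, H2-M10.6, H2-M11, H2-Pa, H2-Pb and H2-Q3). The E alpha gene, listed as the pseudogene H2-Ea-ps, is among them. Another 7 had a few counts and were not tested (H2-Bl, H2-M10.2, H2-M2, H2-M6-ps, H2-M9, H2-Q2 and H2-T3), none above 0.194 CPM in any library. Among the tested members, H2-Eb2 and H2-M5 passed the filter on low counts with no Sham library at its cutoff of 0.138 CPM.

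After infarction with vehicle, a set of MHC transcripts rose relative to Sham, among them the class II peptide exchange genes H2-DMa, H2-DMb1 and H2-DMb2, the class II switch Ciita and the class I heavy chains H2-D1 and H2-K1. At an edgeR adjusted p under 0.05, 16 of 36 tested members were called in MI relative to Sham, beside 33.1% of all 19326 tested genes. Of these, 14 rose and 2 fell (13 and 2 of the 34 members other than H2-Eb2 and H2-M5), where 18.8% of all tested genes rose and 14.3% fell. At an unadjusted p under 0.05 it was 26 members, H2-Eb2 and H2-M5 among them, and 43.9% of all tested genes. The median log2 fold change was 0.77 over the tested members and 0.04 over all tested genes. In 20 members, again with H2-Eb2 and H2-M5, every MI library lay above every Sham library, which held for 25.7% of all tested genes. In 5 members every MI library lay below, against 23.2%. Without MI 4, 10 members rose and 2 fell, and the median was 0.50. Without Sham 3 a total of 10 members were called, and both counts include H2-Eb2. Over plain library totals 27 rose, H2-Eb2 and H2-M5 among them, and 0 fell, and this scaling moved the median of all genes to 0.88. All members together took 0.207%, 0.186% and 0.238% of the unscaled counts in MI_ART and 0.181%, 0.204% and 0.314% in MI. In Sham they took 0.0815%, 0.0758% and 0.0760%. After TMM scaling they summed to 1783, 1628 and 2037 CPM in MI_ART and 1513, 1610 and 2450.5 CPM in MI. In Sham the scaled sums were 1144, 1018 and 1218 CPM, so the rise over Sham was smaller on this scale. The TMM factors were 1.14 to 1.17 in MI_ART, 1.19 to 1.28 in MI and 0.624 to 0.744 in Sham. In bulk tissue, a change in the number of cells that carry a transcript and a change in the RNA per cell cannot be told apart.

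With artesunate after infarction, 11 members were called relative to Sham, beside 20.3% of all tested genes. 10 rose and 1 fell (9 and 1 of the 34 members other than H2-Eb2 and H2-M5), where 12.9% of all tested genes rose and 7.41% fell. At an unadjusted p under 0.05 it was 18 members, H2-Eb2 among them, and 33.3% of all tested genes. The median log2 fold change was 0.65 over the members and 0.01 over all tested genes. Every MI_ART library lay above every Sham library in 25 members, again with H2-Eb2, against 25.4% of all genes, and below in 2, against 22.8%. This contrast uses the same Sham libraries as MI versus Sham, so the 2 sets of calls are not independent. Over plain library totals 27 rose, H2-Eb2 among them, and 0 fell, with the median of all genes at 0.75. All 9 libraries share 1 estimate of the spread, and the count of higher members depended on single libraries. With H2-Eb2 included each time, it was 20 when MI 4 was left out. It was 5 without Sham 1 or without MI_ART 3, and 6 without Sham 2 or without MI_ART 1.

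**Figure D1:**
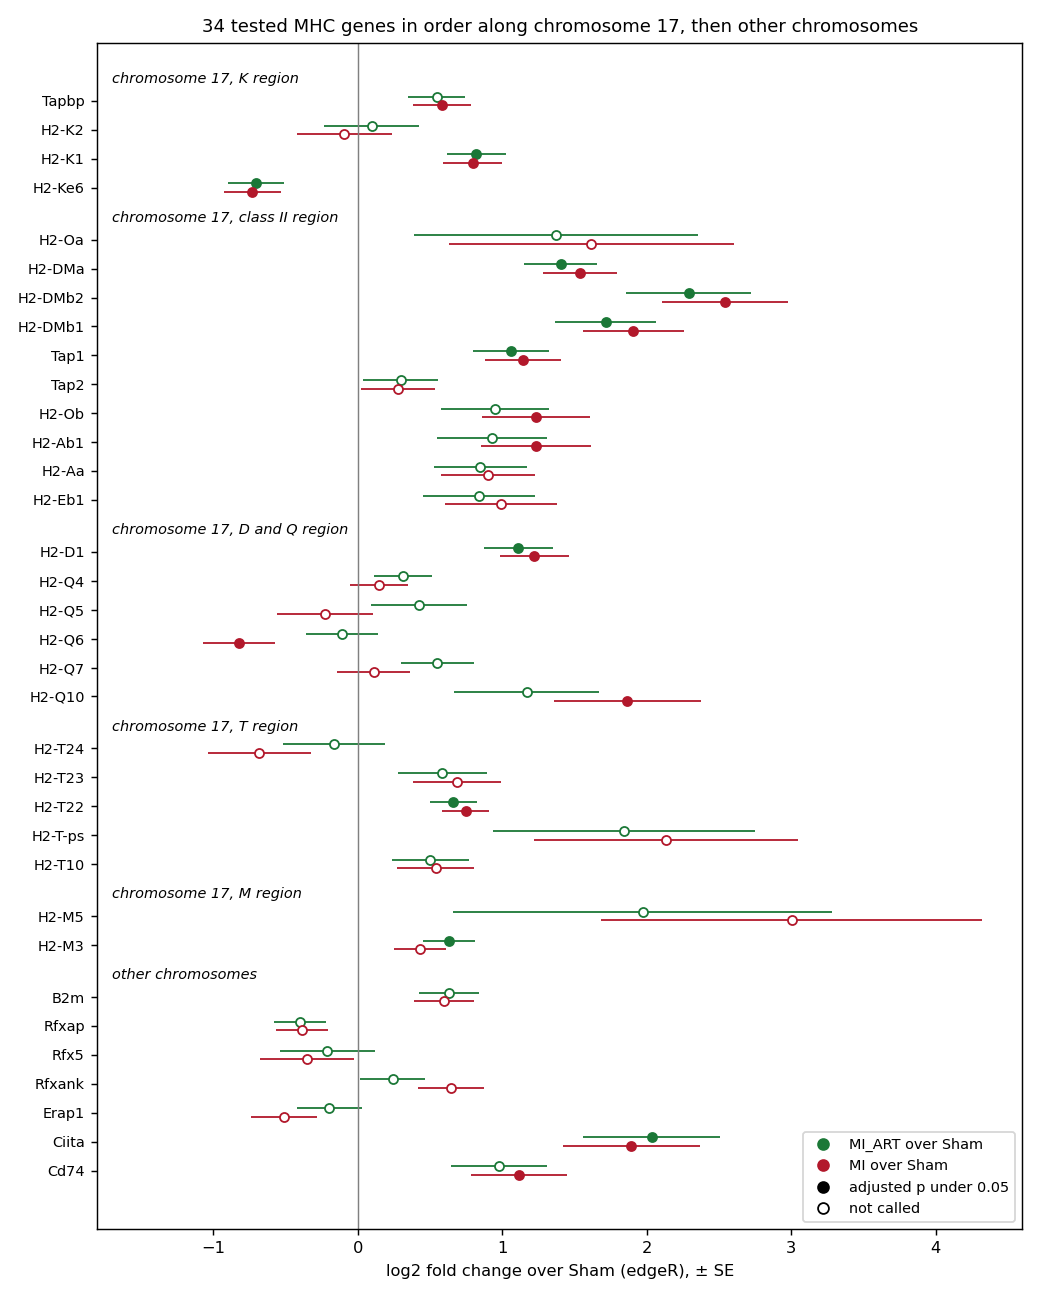
Log2 fold change over Sham (horizontal axis, edgeR, bars ± SE) of 34 tested members in MI_ART (green) and MI (red), in order along chromosome 17 and then on other chromosomes, with filled points for called changes; H2-Q1 and H2-Eb2, whose fitted values depend on counts at 0, are left out. All 3 H2-DM chains are called in both groups, with H2-DMb2 at 2.29 in MI_ART and 2.54 in MI.

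Of the classical class II chains and their chaperone, H2-Ab1 and Cd74 rose in MI, while H2-Aa and H2-Eb1 did not pass the test. Cd74, the invariant chain (chr18:60803849-60812652 in GRCm38), rose in MI, with a log2 fold change of 1.12 ± 0.33 (SE, edgeR adjusted p = 0.0275). The values of Cd74 were 119.6, 114 and 168 CPM with artesunate after infarction, 86.7, 119 and 237 CPM in MI and 74.2, 64.7 and 65.2 CPM in Sham. All 3 libraries of each infarcted group exceeded all 3 Sham libraries, and MI 4 held by far the highest value. Cd74 averaged 134 ± 29.4 CPM in MI_ART, 148 ± 79.2 CPM in MI and 68 ± 5.35 CPM in Sham (SD, n = 3 each). Without MI 4 its fold change in MI was 0.60 on the log2 scale, still called (edgeR adjusted p = 0.0466), and it was not called without Sham 1, Sham 2 or Sham 3 (edgeR adjusted p = 0.0621, 0.0848 and 0.0869). In MI_ART versus Sham it was 0.98 ± 0.33 (SE, edgeR adjusted p = 0.066), and it was called there without MI 4 (edgeR adjusted p = 0.00412), without MI 2 (0.0332) or by DESeq2 (adjusted p = 0.0208).

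H2-Ab1, the A beta chain (chr17:34263227-34269418), rose in MI by 1.24 ± 0.38 (SE, edgeR adjusted p = 0.0313) on the log2 scale. H2-Ab1 stood at 37.5, 38 and 64.2 CPM in MI_ART, at 32.6, 46.9 and 93.3 CPM in MI and at 28.7, 18.8 and 25.8 CPM in Sham. The lowest MI value lay only slightly above the highest Sham value. Without MI 4 the difference was 0.70 and no longer called (edgeR adjusted p = 0.0924), and the call was also lost without Sham 1, Sham 2 or Sham 3 (0.0571, 0.109 and 0.0817). H2-Aa, which encodes the partner A alpha chain (chr17:34282744-34287823), was not called, at 0.90 ± 0.32 (SE, edgeR adjusted p = 0.0563) in MI. H2-Aa had 87.6, 108 and 149 CPM in the MI_ART libraries, 72, 108 and 178 CPM in the MI libraries, and 66, 52.7 and 72.8 CPM in the Sham libraries. MI 2 lay inside the Sham range, whereas the MI_ART libraries all lay above it. H2-Eb1, the E beta chain (chr17:34305867-34316674), was not called either, at 0.99 ± 0.39 (SE, edgeR adjusted p = 0.0759). The values of H2-Eb1 were 45.2, 50.1 and 72.1 CPM with artesunate after infarction, 31.3, 48.8 and 106 CPM in MI and 32.2, 27 and 34.3 CPM in Sham. MI 2 again lay inside the Sham range and MI 4 far above the rest. By DESeq2 H2-Aa and H2-Eb1 were called in MI (adjusted p = 0.0218 and 0.0321). Without MI 2 both H2-Aa and H2-Eb1 were called (edgeR adjusted p = 0.0148 and 0.0151). In MI_ART versus Sham the log2 differences were 0.85 for H2-Aa, 0.93 for H2-Ab1 and 0.84 for H2-Eb1 (edgeR adjusted p = 0.0944, 0.114 and 0.162). None of these was called by edgeR, although every MI_ART library lay above every Sham library, and without MI 4 all 3 were (edgeR adjusted p = 0.0235, 0.0254 and 0.0204), as was H2-Aa by DESeq2 (adjusted p = 0.0441).

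The peptide exchange genes rose in both infarcted groups. H2-DMa encodes the alpha chain of the exchange factor (chr17:34119693-34139101). H2-DMa stood at 11.2, 10.2 and 13.7 CPM in MI_ART, at 9.55, 11.4 and 17.6 CPM in MI and at 4.77, 4.6 and 3.91 CPM in Sham. It rose by 1.40 ± 0.25 (SE, edgeR adjusted p = 0.0044) in MI_ART and by 1.54 ± 0.25 (SE, edgeR adjusted p = 0.00156) in MI, on the log2 scale. H2-DMb1, a beta chain of the same factor (chr17:34153191-34160229), rose by 1.72 ± 0.35 (SE, edgeR adjusted p = 0.0077) in MI_ART and by 1.91 ± 0.35 (SE, edgeR adjusted p = 0.00267) in MI. H2-DMb1 had 6.89, 7.26 and 12.4 CPM in the MI_ART libraries, 6.49, 8.8 and 15 CPM in the MI libraries, and 2.52, 2.51 and 3.04 CPM in the Sham libraries. H2-DMb2, a second beta chain gene next to it (chr17:34143229-34151553), rose by 2.29 ± 0.43 (SE, edgeR adjusted p = 0.00549) in MI_ART and by 2.54 ± 0.44 (SE, edgeR adjusted p = 0.00186) in MI. The values of H2-DMb2 were 2.13, 2.09 and 2.76 CPM with artesunate after infarction, 2.09, 2.08 and 4.14 CPM in MI and 0.70, 0.434 and 0.287 CPM in Sham. No MI_ART or MI library of these 3 genes came as low as the highest Sham library. The 3 genes were called in both contrasts under every alternative tried, each of the 9 libraries left out in turn included. H2-DMb1 and H2-DMb2 are close copies, and since the handling of reads that fit both is not given in the sources used here, the division of counts between them is uncertain.

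H2-Ob, the beta chain of the H2-O molecule that restrains H2-DM (chr17:34238905-34245908), rose in MI by 1.23 ± 0.38 (SE, edgeR adjusted p = 0.0301). H2-Ob stood at 2.69, 1.96 and 1.8 CPM in MI_ART, at 2.03, 2.37 and 3.44 CPM in MI and at 1.18, 1.48 and 0.67 CPM in Sham. The infarcted libraries lay above the Sham libraries, but the call in MI was lost without Sham 1, Sham 3, MI 3 or MI 4 (edgeR adjusted p = 0.0699, 0.0879, 0.0524 and 0.0747). In MI_ART the difference from Sham was 0.95 ± 0.37 (SE, edgeR adjusted p = 0.103). H2-Oa, its alpha chain, was not called, at 1.62 ± 0.99 (SE, edgeR adjusted p = 0.236) in MI. H2-Oa had 0.789, 1.11 and 1.13 CPM in the MI_ART libraries, 0.433, 1.22 and 1.94 CPM in the MI libraries, and 0.553, 0 and 0.613 CPM in the Sham libraries. Sham 2 had none, and MI 2 lay below the other Sham libraries. H2-Eb2, a further beta chain gene (chr17:34325503-34341410), had no read in any Sham library. It had 35, 17 and 22 counts in the MI_ART libraries and 17, 28 and 32 counts in the MI libraries. Against a floor of 3 counts per Sham library, it was at least 5.32-fold higher in MI_ART and at least 4.88-fold higher in MI. It passed the filter on low counts through the infarcted groups alone, so its p-values are not given. The bounds cover counting error only, and its highest value was 0.432 CPM.

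Over the 10 class II chain and chaperone genes, 4 rose in MI_ART and 7 in MI relative to Sham, where 12.9% of all tested genes rose in MI_ART and 18.8% in MI, and none fell. Without H2-Eb2, which passed the filter through the infarcted groups alone, it was 3 of 9 in MI_ART and 6 of 9 in MI. Over all 10, H2-Eb2 included, the median log2 fold changes were 1.18 in MI_ART and 1.39 in MI, beside 0.01 and 0.04 for all tested genes. The 9 genes without H2-Eb2 ran from 0.84 to 2.29 in MI_ART and from 0.90 to 2.54 in MI. All 10 had their highest MI value in MI 4. With H2-Eb2 included, the count in MI was 5 without MI 4, and 4 without Sham 1 or without Sham 3. In MI_ART the count, again with H2-Eb2, was 8 without MI 4. Summed over the 10 genes, the level was 314, 333 and 485 CPM in MI_ART, 243, 349 and 657 CPM in MI, and 211, 172 and 207 CPM in Sham. MI 2 was the lowest infarcted library and still lay above the Sham libraries.

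**Figure D2:**
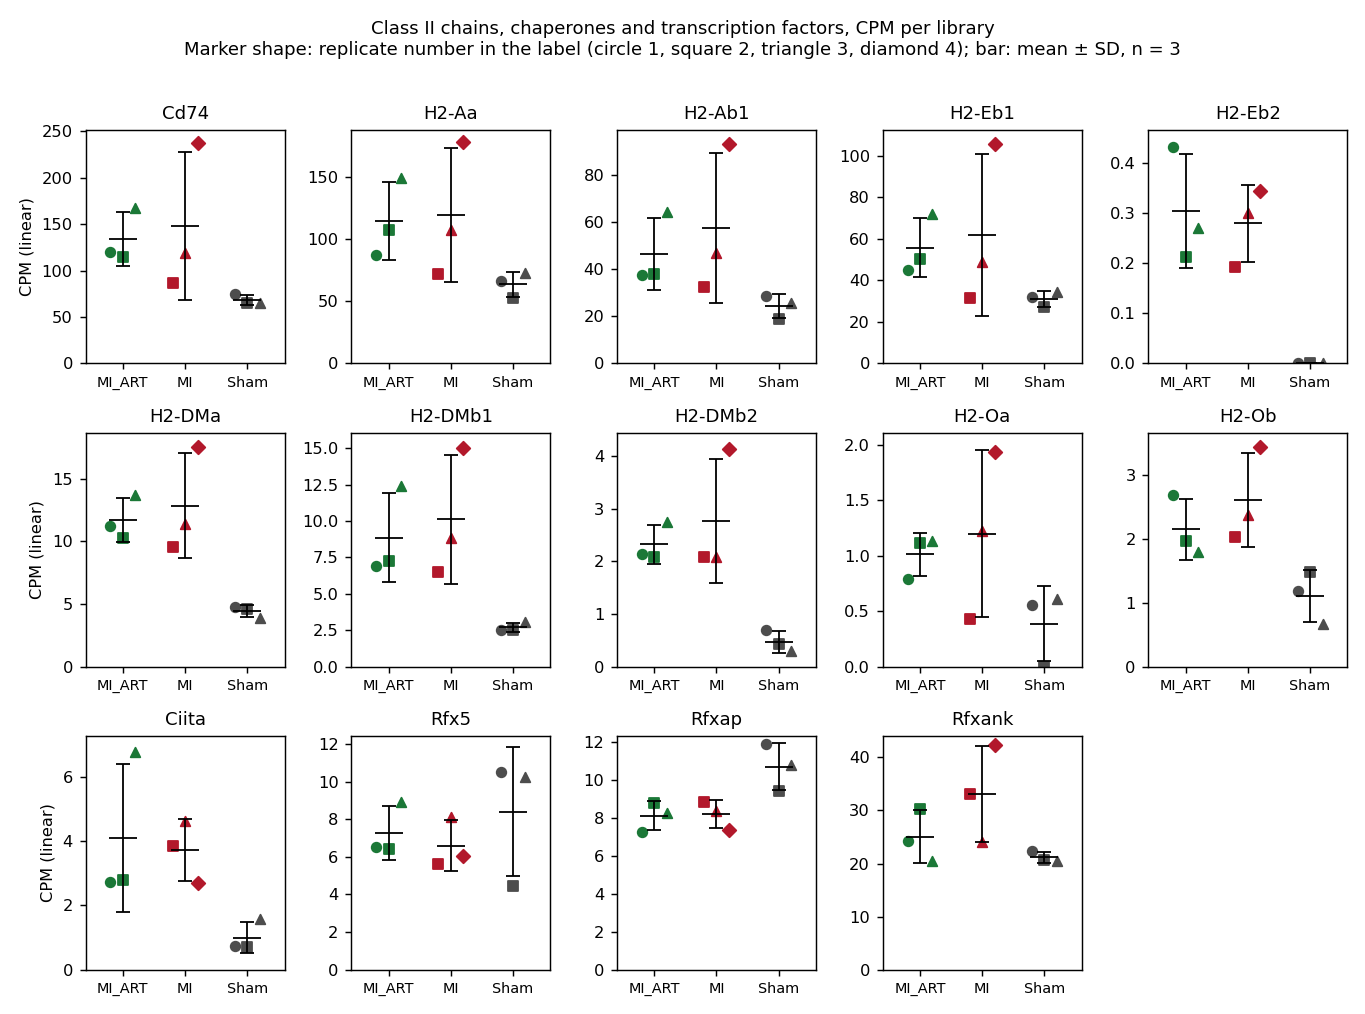
CPM per library (vertical axes, linear, 1 panel per gene) of the class II chains, chaperones and transcription genes in MI_ART, MI and Sham, with points for libraries, shaped by their number in the label, and bars for the mean ± SD (n = 3). MI 4 is the highest point for Cd74 at 237 CPM and for H2-Ab1 at 93.3 CPM, but the lowest MI point for Ciita at 2.70 CPM.

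Of the class II transcription genes, Ciita rose and its RFX partners were not called by edgeR. Ciita (chr16:10480014-10531064) rose by 2.04 ± 0.47 (SE, edgeR adjusted p = 0.0145) in MI_ART and by 1.89 ± 0.47 (SE, edgeR adjusted p = 0.0124) in MI relative to Sham. The values of Ciita were 2.74, 2.8 and 6.77 CPM with artesunate after infarction, 3.84, 4.62 and 2.7 CPM in MI and 0.737, 0.691 and 1.57 CPM in Sham. The infarcted libraries all lay above the Sham libraries, and within the infarcted groups the order differed from that of the class II chains. MI 4, the library with the most class II mRNA, had the lowest Ciita value of the MI group. The call in MI was lost without Sham 2 (edgeR adjusted p = 0.0501), and that in MI_ART without Sham 1, Sham 2 or MI_ART 3 (0.0586, 0.0584 and 0.0564). Rfx5, the DNA-binding subunit of the complex, stood at 6.51, 6.4 and 8.9 CPM in MI_ART, 5.6, 8.14 and 6.03 CPM in MI and 10.5, 4.44 and 10.2 CPM in Sham. Sham 2 was the lowest of all 9 libraries and the other Sham libraries were the highest, and the log2 difference in MI was -0.35 ± 0.33 (SE, edgeR adjusted p = 0.449). Rfxap, the accessory subunit, had 7.26, 8.77 and 8.26 CPM in MI_ART, 8.85, 8.36 and 7.36 CPM in MI and 11.9, 9.4 and 10.8 CPM in Sham, and its log2 difference in MI was -0.38 ± 0.18 (SE, edgeR adjusted p = 0.132). Every Sham value of Rfxap exceeded every infarcted value, without passing the test. Rfxank, the ankyrin repeat subunit, stood at 24.3, 30.4 and 20.5 CPM in MI_ART, at 33, 24.1 and 42.2 CPM in MI and at 22.4, 20.7 and 20.4 CPM in Sham. Its difference in MI was 0.65 ± 0.23 (SE, edgeR adjusted p = 0.0522), called without MI 3 (edgeR adjusted p = 0.019) or without MI_ART 2 (0.0476), and by DESeq2 (adjusted p = 0.0274).

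The classical class I heavy chains rose in both infarcted groups. H2-D1 (chr17:35263094-35267497) rose by 1.11 ± 0.24 (SE, edgeR adjusted p = 0.0101) in MI_ART and by 1.22 ± 0.24 (SE, edgeR adjusted p = 0.00368) in MI. H2-D1 had 344, 296 and 389.8 CPM in the MI_ART libraries, 315, 278 and 518 CPM in the MI libraries, and 168, 149 and 160.2 CPM in the Sham libraries. All 6 infarcted libraries lay above the Sham libraries, and the call held under every alternative tried in both contrasts. It averaged 343 ± 47.1 CPM in MI_ART, 370.2 ± 129 CPM in MI and 159 ± 9.56 CPM in Sham (SD, n = 3 each). H2-K1 (chr17:33996012-34000619) rose by 0.82 ± 0.20 (SE, edgeR adjusted p = 0.0193) in MI_ART and by 0.80 ± 0.20 (SE, edgeR adjusted p = 0.0141) in MI. The values of H2-K1 were 208, 164 and 195 CPM with artesunate after infarction, 179.7, 141 and 236 CPM in MI and 113, 111 and 97.2 CPM in Sham. The groups did not overlap with Sham here either. The call for H2-K1 in MI was lost without Sham 3 (edgeR adjusted p = 0.0572), and that in MI_ART without any 1 of Sham 1, Sham 2, Sham 3, MI_ART 1 and MI_ART 3 (0.0545, 0.0561, 0.0767, 0.0802 and 0.0649). Class I heavy chain genes share long near-identical stretches, so reads may be divided wrongly among them.

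B2m, the light chain shared by all class I molecules (chr2:122147687-122153082), was not called by edgeR against Sham in either infarcted group, close to the threshold. B2m stood at 531, 450.0 and 555 CPM in MI_ART, at 432, 505 and 564 CPM in MI and at 322, 254 and 417 CPM in Sham. All infarcted libraries exceeded all Sham libraries, among which values ran widely. Its log2 difference from Sham was 0.63 ± 0.21 (SE, edgeR adjusted p = 0.0596) in MI_ART and 0.60 ± 0.21 (SE, edgeR adjusted p = 0.0513) in MI. Left out in turn, Sham 3 and MI 2 each brought B2m past the threshold in MI (edgeR adjusted p = 0.0245 and 0.0435), and Sham 3 and MI 4 did so in MI_ART (0.0346 and 0.0302). B2m was called in 9 of 19 alternatives in MI, among them DESeq2 (adjusted p = 0.0213), limma-voom (0.0421) and RLE or upper-quartile factors (0.0478 and 0.0483), and in 7 of 19 in MI_ART, among them DESeq2 (0.0202).

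Among the genes that supply and load class I peptides, Tap1 rose in both infarcted groups and Tapbp in MI, while Tap2 and Erap1 were not called. Tap1 (chr17:34187556-34197225), one chain of the peptide pump, rose by 1.06 ± 0.26 (SE, edgeR adjusted p = 0.0189) in MI_ART and by 1.15 ± 0.26 (SE, edgeR adjusted p = 0.00819) in MI. Tap1 had 19.9, 11.1 and 19.6 CPM in the MI_ART libraries, 18, 15.2 and 20.6 CPM in the MI libraries, and 6.73, 9.91 and 7.66 CPM in the Sham libraries. MI_ART 2 came close to the highest Sham library, and the other infarcted libraries lay well above. The call in MI_ART was lost without Sham 1, Sham 3, MI_ART 1 or MI_ART 3 (edgeR adjusted p = 0.0743, 0.0719, 0.0823 and 0.0734). Tap2 (chr17:34204479-34216321), the other chain of the pump, differed from Sham by 0.30 ± 0.26 (SE, edgeR adjusted p = 0.473) in MI_ART and by 0.28 ± 0.26 (SE, edgeR adjusted p = 0.44) in MI. The values of Tap2 were 24.9, 26.8 and 25.8 CPM with artesunate after infarction, 19.3, 19.4 and 37.8 CPM in MI and 20, 23.9 and 19.1 CPM in Sham. MI 4 alone stood far above the rest, and without it the difference in MI was -0.11 (edgeR adjusted p = 0.544). Tapbp, the tapasin bridge between pump and heavy chain (chr17:33919478-33929290), rose in MI by 0.58 ± 0.20 (SE, edgeR adjusted p = 0.0462). Tapbp stood at 64, 67 and 59.5 CPM in MI_ART, at 59.1, 52.4 and 83.8 CPM in MI and at 48.4, 44.4 and 37.4 CPM in Sham. This call was near the threshold, and it held in 7 of the 19 alternatives. It was lost without any 1 of Sham 1, Sham 2, Sham 3, MI 2, MI 4 and the 3 MI_ART libraries, with edgeR adjusted p values of 0.0699, 0.103, 0.148, 0.0544, 0.0688, 0.0713, 0.0587 and 0.0707. In MI_ART Tapbp differed from Sham by 0.55 ± 0.20 (SE, edgeR adjusted p = 0.0804), and it was called there without MI 4 (edgeR adjusted p = 0.00907) or by DESeq2 (adjusted p = 0.0486). Erap1, the trimming peptidase (chr13:74639573-74693205), differed by -0.20 ± 0.23 (SE, edgeR adjusted p = 0.603) in MI_ART and by -0.51 ± 0.23 (SE, edgeR adjusted p = 0.111) in MI. Erap1 had 47.9, 37.4 and 46 CPM in the MI_ART libraries, 37.8, 44.3 and 23.6 CPM in the MI libraries, and 50.1, 46.3 and 54.1 CPM in the Sham libraries. Its lowest value was that of MI 4, the library with the highest values of most other members.

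**Figure D3:**
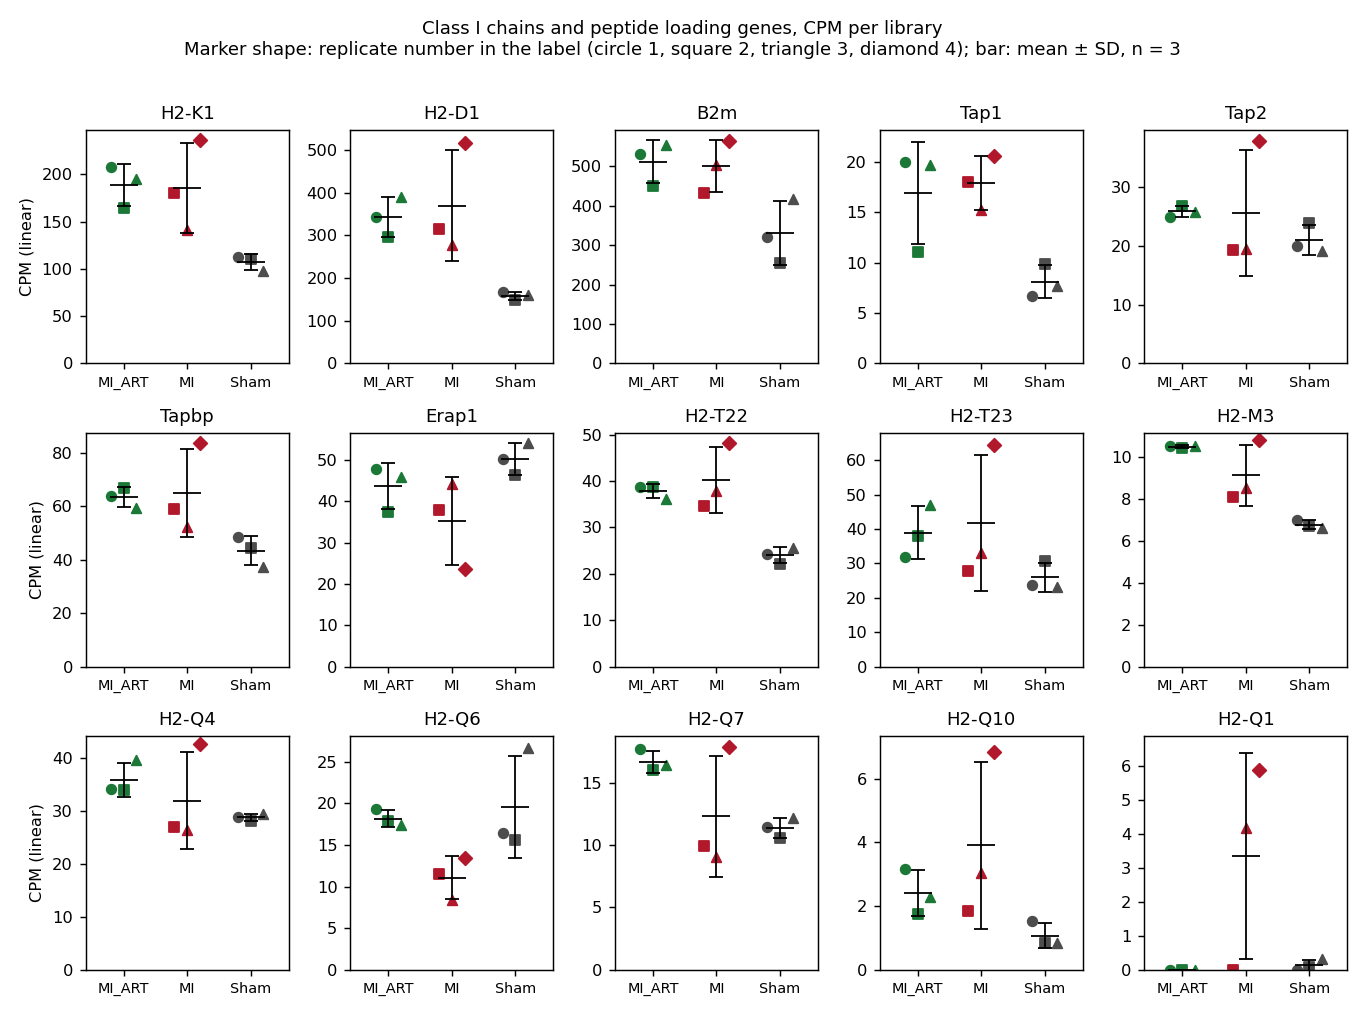
CPM per library (vertical axes, linear, 1 panel per gene) of class I heavy chains, B2m, peptide loading genes and 8 other class I loci in MI_ART, MI and Sham, with points for libraries, shaped by their number in the label, and bars for the mean ± SD (n = 3). The infarcted libraries of H2-D1 lie between 278 and 518 CPM, all above the Sham libraries, whereas the Erap1 libraries of MI_ART overlap with Sham and those of MI lie below it.

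The other class I loci, which are those of the H2-T, H2-Q and H2-M regions and H2-K2 of the K region, did not move as one group. Of 14 tested, 2 rose in MI_ART, which were H2-T22 and H2-M3. In the MI group 2 rose, which were H2-T22 and H2-Q10, and 1 fell, which was H2-Q6. Of all tested genes, 12.9% rose in MI_ART and 18.8% in MI, near the shares of these loci. H2-T22, which encodes a nonclassical heavy chain seen by some gamma delta T cells (chr17:36037128-36042742), rose by 0.66 ± 0.16 (SE, edgeR adjusted p = 0.0188) in MI_ART and by 0.75 ± 0.16 (SE, edgeR adjusted p = 0.00646) in MI. The values of H2-T22 were 38.8, 38.8 and 36.2 CPM with artesunate after infarction, 34.7, 37.9 and 48.3 CPM in MI and 24.3, 22.1 and 25.6 CPM in Sham. Values were tight within Sham and MI_ART, and the call in MI held under every alternative tried. In MI_ART it was lost without Sham 1, Sham 2, MI_ART 1 or MI_ART 3 (edgeR adjusted p = 0.0631, 0.0727, 0.0729 and 0.0515). H2-M3, which presents peptides that begin with N-formylmethionine, as bacteria and mitochondria make them (chr17:37270234-37274485), rose by 0.63 ± 0.18 (SE, edgeR adjusted p = 0.0325) in MI_ART. H2-M3 stood at 10.5, 10.4 and 10.5 CPM in MI_ART, at 8.09, 8.5 and 10.8 CPM in MI and at 7.0, 6.69 and 6.6 CPM in Sham. The MI_ART libraries were nearly equal, and all infarcted values lay above the Sham values. In MI the difference was 0.43 ± 0.18 (SE, edgeR adjusted p = 0.0883). The MI_ART call was lost when any 1 Sham or MI_ART library was left out, with edgeR adjusted p values of 0.0664 to 0.107.

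H2-Q10, a class I heavy chain known as a secreted liver product (chr17:35470089-35474563), rose in MI by 1.87 ± 0.51 (SE, edgeR adjusted p = 0.0182). H2-Q10 had 3.17, 1.76 and 2.28 CPM in the MI_ART libraries, 1.83, 3.02 and 6.84 CPM in the MI libraries, and 1.53, 0.849 and 0.823 CPM in the Sham libraries. MI 4 lay far above every other library, and without it the log2 difference was 1.19 and not called (edgeR adjusted p = 0.0535). The call was also lost without Sham 2 or Sham 3 (0.0669 and 0.0716). In MI_ART the difference was 1.17 ± 0.50 (SE, edgeR adjusted p = 0.132), called without MI 4 (edgeR adjusted p = 0.0433). H2-Q6 (chr17:35424850-35430055), one of the Qa-2 genes, fell in MI, with a log2 fold change of -0.82 ± 0.25 (SE, edgeR adjusted p = 0.0301). The values of H2-Q6 were 19.3, 17.8 and 17.4 CPM with artesunate after infarction, 11.5, 8.35 and 13.4 CPM in MI and 16.5, 15.6 and 26.6 CPM in Sham. All MI libraries lay below all Sham and all MI_ART libraries. Its call was lost without Sham 3, MI 2, MI 3 or MI_ART 2 (edgeR adjusted p = 0.119, 0.0596, 0.092 and 0.0558), and over plain library totals its difference was 0.05. H2-Q7, the neighbouring Qa-2 gene, was at 17.7, 16 and 16.4 CPM in MI_ART, 9.95, 9.04 and 17.9 CPM in MI and 11.4, 10.6 and 12.2 CPM in Sham. Its difference in MI was 0.11 ± 0.25 (SE, edgeR adjusted p = 0.768), and in MI_ART it was 0.55 ± 0.25 (SE, edgeR adjusted p = 0.159), called there without MI 4 (edgeR adjusted p = 0.00849). H2-Q6 and H2-Q7 are close copies, so the split of reads between them is uncertain.

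The remaining class I loci were not called by edgeR in any contrast. H2-T23 encodes Qa-1, a ligand of receptors on natural killer and CD8 T cells. H2-T23 stood at 31.8, 37.9 and 47 CPM in MI_ART, at 27.8, 32.9 and 64.5 CPM in MI and at 23.8, 30.8 and 23.1 CPM in Sham. MI 4 stood apart here too, and the log2 difference in MI was 0.69, or 0.23 without MI 4. H2-T23 was called in MI without MI 2 (edgeR adjusted p = 0.0454) and in MI_ART without MI 4 (0.0348). H2-Q4 had 34.2, 33.9 and 39.6 CPM in MI_ART, 26.9, 26.3 and 42.6 CPM in MI and 28.9, 28.1 and 29.5 CPM in Sham. The Sham libraries of H2-Q4 were tight, and MI 2 and MI 3 lay below them and MI 4 above, and without MI 4 its MI_ART difference of 0.32 was called (edgeR adjusted p = 0.0417). H2-T24 had 3.86, 3.69 and 7.2 CPM in the MI_ART libraries, 4.38, 3.88 and 2.04 CPM in the MI libraries, and 4.96, 4.99 and 6.55 CPM in the Sham libraries. The next 2 genes are transcribed pseudogenes in the RefSeq annotation. The values of H2-T10 were 2.95, 2.5 and 3.48 CPM with artesunate after infarction, 2.52, 2.83 and 3.81 CPM in MI and 1.97, 1.99 and 2.34 CPM in Sham. H2-K2 stood at 2.76, 5.07 and 6.08 CPM in MI_ART, at 3.01, 3.81 and 5.4 CPM in MI and at 4.53, 4.76 and 3.71 CPM in Sham. H2-T10 lay above Sham in all infarcted libraries, while H2-T24 in MI_ART and H2-K2 in both infarcted groups overlapped with Sham. H2-T-ps and H2-M5 were below 1.2 CPM in every library. H2-T-ps had a log2 difference in MI of 2.13 ± 0.91 (SE, edgeR adjusted p = 0.1), and it was called there by DESeq2 (adjusted p = 0.0282). H2-M5 had a log2 difference in MI of 3.00 ± 1.32 (SE), with 30, 24 and 20 counts in MI and 0, 5 and 0 counts in Sham. It passed the filter on low counts with no Sham library at the cutoff, so its p-values are not given. H2-Q1 was present in some libraries and absent in others, with no count in the 3 MI_ART libraries, 0, 389 and 544 counts in MI 2, MI 3 and MI 4, and 0, 4 and 16 counts in Sham 1 to 3. Its values thus split the MI group, and no fold change is given. Leaving out MI 2, the MI library without it, brought a call in MI, but that choice of library sets the outcome, so no p-value is given.

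H2-Ke6 carries an H2 name for its place in the MHC and not for its role, since it encodes a steroid dehydrogenase, Hsd17b8 (chr17:34026033-34028055). It fell by 0.70 ± 0.20 (SE, edgeR adjusted p = 0.0316) in MI_ART and by 0.73 ± 0.20 (SE, edgeR adjusted p = 0.0177) in MI on the log2 scale. H2-Ke6 had 20.3, 23 and 25.7 CPM in the MI_ART libraries, 23.5, 17.9 and 26.4 CPM in the MI libraries, and 33.3, 44.2 and 34.9 CPM in the Sham libraries. No infarcted library came as high as the lowest Sham library. Over plain library totals the differences were 0.03 in MI_ART and 0.11 in MI, and that scaling moved the median of all genes to 0.75 in MI_ART and 0.88 in MI. The call in MI was lost without Sham 2 or MI 3 (edgeR adjusted p = 0.072 and 0.0566), and that in MI_ART without any 1 Sham or MI_ART library (0.0555 to 0.134).

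Along chromosome 17, members of the K, class II, D and Q and T regions were called in both infarcted groups, and no difference between regions was tested. The members fall into the K region (33919478 to 34085852, 6 members), the class II region (34092379 to 34344645, 12 members), the D and Q region (35263094 to 35474563, 9 members), the T region (36003471 to 36190151, 7 members) and the M region (36284281 to 37483554, 14 members). Beside the counts that follow, 12.9% of all tested genes rose and 7.41% fell in MI_ART, and 18.8% rose and 14.3% fell in MI. In the class II region, which also holds Tap1 and Tap2, 5 of 11 tested members rose in MI_ART and 7 in MI, and none fell. Both counts include H2-Eb2, which passed the filter on low counts through the infarcted groups alone. In the K region, 1 of 4 rose and 1 fell in MI_ART, and 2 rose and 1 fell in MI. In the D and Q region, 1 of 7 rose in MI_ART, and 2 rose and 1 fell in MI. In the T region 1 of 5 rose in each infarcted group. The M region had 2 tested members, of which 1 rose in MI_ART.

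Artesunate after infarction was compared with vehicle to ask what the drug changes. None of the 36 tested members was called in MI_ART versus MI by edgeR, DESeq2 or limma-voom, where edgeR called 2 of all tested genes (0.0103%). At an unadjusted p under 0.05, 2 members passed (H2-Q6 and H2-Q1), beside 6.96% of all tested genes. The median log2 fold change was -0.05 over the members and -0.00302 over all tested genes. 21 members had a value below 0, but 8 did without MI 4 and 11 without MI 4 and MI_ART 3. In 2 members every MI_ART library lay above every MI library, which held for 7.38% of all tested genes, and in none did every MI_ART library lie below, against 6.52%.

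Those 2 were H2-Q6 and H2-Q5. H2-Q6 had 19.3, 17.8 and 17.4 CPM in MI_ART and 11.5, 8.35 and 13.4 CPM in MI, and its log2 fold change was 0.71 ± 0.25 (SE, edgeR adjusted p = 0.708), with a 95% interval of 0.16 to 1.27. H2-Q5 is annotated as a transcribed pseudogene and showed 3.31, 2.65 and 3.2 CPM in MI_ART, 2.16, 1.35 and 2.32 CPM in MI and 1.95, 1.68 and 3.18 CPM in Sham. Its log2 fold change was 0.65 ± 0.33 (SE, edgeR adjusted p = 0.732), and neither was called. For the class II genes, the log2 difference of MI_ART from MI was -0.14 ± 0.33 (SE, edgeR adjusted p = 0.931) for Cd74, with a 95% interval of -0.88 to 0.59, and -0.31 ± 0.37 (SE, edgeR adjusted p = 0.853) for H2-Ab1. Without MI 4 they were 0.38 and 0.23, so the sign of both turned. Ciita differed by 0.14 ± 0.45 (SE, edgeR adjusted p = 0.953), and by -0.0444 without MI 4 and -0.43 without MI_ART 3. H2-D1 differed by -0.11 ± 0.24 (SE, edgeR adjusted p = 0.926), and by 0.21 without MI 4. Intervals of this width do not show that the drug left these genes as they were.

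Genes that work with the members outside the name rule were described from lists. Of 13 class I partners, which make, chaperone or regulate class I peptides, 2 rose in MI_ART and 3 in MI relative to Sham, and none fell, where 12.9% of all tested genes rose in MI_ART and 18.8% in MI, and the median log2 fold changes of the partners were 0.33 in MI_ART and 0.53 in MI. Pdia3, a disulphide isomerase of the loading complex, changed by 0.98 ± 0.19 (SE, edgeR adjusted p = 0.00561) in MI_ART and 1.11 ± 0.19 (SE, edgeR adjusted p = 0.00167) in MI. Psmb8, an immunoproteasome subunit, differed by 0.98 ± 0.31 (SE, edgeR adjusted p = 0.0534) in MI_ART and rose by 1.27 ± 0.31 (SE, edgeR adjusted p = 0.0121) in MI. Nlrc5, the class I counterpart of Ciita, had 14.1, 9.51 and 14.9 CPM in MI_ART, 8.33, 9.78 and 6.17 CPM in MI and 3.0, 5.51 and 5.67 CPM in Sham, and was named for this role after its values were seen. It rose by 1.44 ± 0.30 (SE, edgeR adjusted p = 0.00926) in MI_ART and differed by 0.78 ± 0.30 (SE, edgeR adjusted p = 0.0732) in MI. Of 11 tested class II partners, which cut antigens, costimulate or bind class II promoters, 6 rose in each infarcted group and none fell, with medians of 0.60 in MI_ART and 0.66 in MI. Ctss, the cathepsin that trims the invariant chain, had 338, 158 and 413 CPM in MI_ART, 291, 309.7 and 252 CPM in MI and 19.9, 15.5 and 27.1 CPM in Sham. It rose by 3.86 ± 0.37 (SE, edgeR adjusted p = 2.05e-04) in MI_ART and by 3.77 ± 0.37 (SE, edgeR adjusted p = 1.23e-04) in MI. Ifi30, the lysosomal thiol reductase that unfolds antigens, rose by 3.27 ± 0.32 (SE, edgeR adjusted p = 2.22e-04) in MI_ART and by 3.73 ± 0.33 (SE, edgeR adjusted p = 9.77e-05) in MI.

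Interferon gamma is the classical inducer of class I and class II genes. Of 13 tested genes of interferon signalling, 4 rose and 1 fell in each infarcted group, with medians of 0.38 in MI_ART and 0.34 in MI, while Ifng and Ifnb1 had too few counts to be tested. All tested genes had medians of 0.01 in MI_ART and 0.04 in MI. Of these, 12.9% rose and 7.41% fell in MI_ART, and 18.8% rose and 14.3% fell in MI. Irf8, a factor of myeloid cells, rose by 2.35 ± 0.26 (SE, edgeR adjusted p = 3.77e-04) in MI_ART and by 2.51 ± 0.27 (SE, edgeR adjusted p = 1.66e-04) in MI, and Ifnar1, a type I interferon receptor chain, by 0.78 ± 0.15 (SE, edgeR adjusted p = 0.0062) in MI_ART and by 0.90 ± 0.15 (SE, edgeR adjusted p = 0.00163) in MI. A list of 8 class I receptors and related genes, not all of them known to bind class I, had medians of 2.44 in MI_ART and 1.70 in MI. Both medians fall between Klrk1 and Cd8b1, which were not called and had at most 0.369 and 0.079 CPM in a Sham library. Of the 8 genes, 2 rose in each infarcted group and none fell. They were Pirb, an inhibitory receptor of myeloid and B cells that binds class I, at 3.39 ± 0.29 (SE, edgeR adjusted p = 1.38e-04) in MI_ART and 3.43 ± 0.29 (SE, edgeR adjusted p = 8.67e-05) in MI, and Lilr4b, at 2.95 ± 0.25 (SE, edgeR adjusted p = 1.39e-04) in MI_ART and 2.95 ± 0.25 (SE, edgeR adjusted p = 9.00e-05) in MI. No gene of these 4 lists was called in MI_ART versus MI.

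Markers of macrophages, which can carry class II, rose alongside the members. For the marker counts given here, the shares of all tested genes were 12.9% higher and 7.41% lower in MI_ART, and 18.8% higher and 14.3% lower in MI. The 13 macrophage and monocyte markers summed to 6.51, 4.06 and 7.56 times the Sham mean in MI_ART and 6.20, 5.91 and 7.01 times in MI. Of these markers, 11 rose and 0 fell in MI_ART, and 10 rose and 1 fell in MI, with median log2 fold changes of 2.49 and 2.83. Lyz2 alone held a large part of the sums, with 1094 to 2261 CPM of 2041 to 3803 CPM in MI_ART. It had 1650 to 1824 CPM of 2971 to 3529 CPM in MI and 173 to 305 CPM of 401 to 591 CPM in Sham. The 10 class II genes summed to 1.60, 1.69 and 2.47 times the Sham mean in MI_ART and to 1.24, 1.78 and 3.34 times in MI. The 9 dendritic cell markers lay at 1.74, 1.49 and 1.78 times in MI_ART and 1.42, 1.93 and 1.61 times in MI, and 4 rose in each group, with median log2 fold changes of 2.27 in MI_ART and 1.93 in MI. Zbtb46, which was not called, held most of the sum in Sham, at a mean of 14.7 CPM. Its share was smaller after infarction, with 12.1 to 13.9 CPM of sums of 30.4 to 36.1 CPM in MI_ART. In MI it had 8.07 to 13.5 CPM of sums of 28.9 to 39.2 CPM. Itgax rose by 3.89 ± 0.47 (SE, edgeR adjusted p = 5.09e-04) in MI_ART and by 4.10 ± 0.47 (SE, edgeR adjusted p = 2.48e-04) in MI. The 6 B cell markers stood at 1.73, 1.37 and 2.18 times in MI_ART and 1.70, 1.73 and 4.86 times in MI, and the 6 T cell markers at 1.08, 1.05 and 1.31 times in MI_ART and 0.81, 0.88 and 1.85 times in MI. MI 4, the library highest in class II, was thus also the highest in B and T cell markers, although their summed levels were low, at 14.4 and 7.20 CPM there. Of the B cell markers 0 rose in MI_ART and 2 in MI, and no T cell marker was called. The endothelial sum was 0.87 to 0.88 times the Sham mean in MI_ART and 0.80 to 1.02 times in MI, with 1 of 6 markers lower in MI_ART and 3 in MI. Of the neutrophil markers, 5 of 6 tested rose in MI_ART and 6 in MI, and of the natural killer cell markers 1 of 3 rose in each. Of 5 fibroblast markers, 2 rose in MI_ART, and 3 rose and 1 fell in MI. Of 5 genes of thymic or other epithelium, 1 was tested, Krt8, and it rose in each group, while Foxn1 had no count in any library. Every other marker had counts in at least 1 library, and the part of these cells in the members' changes was not tested.

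Ratios of class II mRNA to macrophage markers depended on the marker. Per count of Cd68, a marker with one of the largest rises, Cd74 and H2-Ab1 were lower in every infarcted library than in every Sham library. The counts of Cd74 over those of Cd68 were 0.841, 1.41 and 1.17 in MI_ART, 0.907, 1.04 and 1.5 in MI, and 7.82, 7.77 and 7.32 in Sham. The same ratio for H2-Ab1 was 0.264, 0.470 and 0.447 in MI_ART, 0.341, 0.411 and 0.588 in MI, and 3.03, 2.25 and 2.89 in Sham. For Cd74 the same held with 9 of the 13 macrophage and monocyte markers, whereas with Timd4 and Lyve1 every infarcted library was higher than every Sham library, and with Mrc1 and Mertk they overlapped. Cd74 over Mrc1 was 0.758, 1.11 and 1.35 in MI_ART, 0.642, 0.855 and 2.78 in MI, and 1.67, 2.02 and 1.23 in Sham. The ratios move with the marker itself and were not tested. Cd68 had 142, 80.8 and 144 CPM in MI_ART, 95.6, 114 and 159 CPM in MI and 9.49, 8.33 and 8.9 CPM in Sham.

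**Figure D4:**
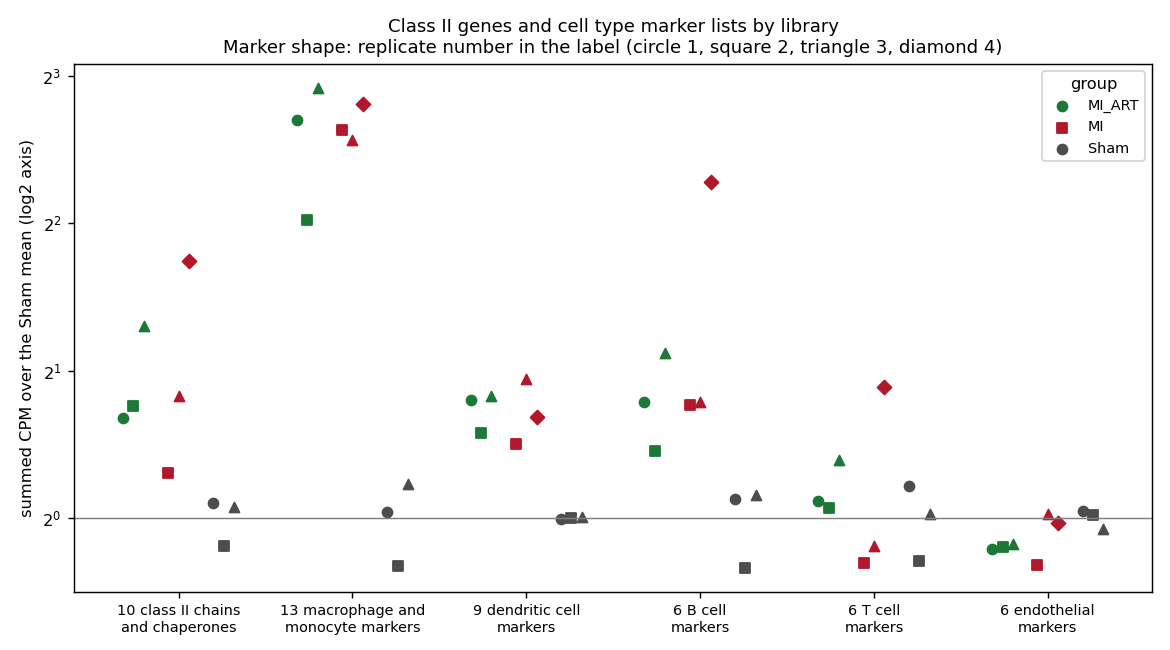
Summed CPM per library over the Sham mean (vertical axis, log2 scale) for the 10 class II genes and for markers of 5 cell types, in MI_ART, MI and Sham, with points for libraries, shaped by their number in the label. Macrophage and monocyte markers reach 4.06 to 7.56 in the infarcted libraries and class II genes 1.24 to 3.34.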

How the data were processed

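The authors deposited unnormalized counts, 1 column per library and 1 row per Ensembl gene, and the per-sample files held the same numbers. Per the submitters' processing notes, the tools were HISAT, DESeq 1.8.3 and featureCounts 1.5.0-p3 with build GRCm38. How strand and multiply mapped reads were handled is not given in the sources used here. Shared reads make the counts of near-identical class I and H2-DM genes uncertain. Kits differ between the labels (RNeasy or TRIzol), and a SMARTer kit was used on 1.3 µg of RNA per library.

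The counts were tested with edgeR 4.0.16 (R 4.3.3). The filter filterByExpr, given the 3 groups, kept 19326 of 55421 genes. Libraries were scaled by TMM and genes tested by quasi-likelihood F tests with all 9 libraries and 1 mean per group. The common dispersion was 0.150 and the prior degrees of freedom 3.80. Calls use a Benjamini-Hochberg adjusted p under 0.05 over all tested genes, and every adjusted p comes from edgeR unless another tool is named. SE is the standard error of a log2 fold change. DESeq2 1.42.0, limma-voom (limma 3.58.1), other scalings, filters and samples left out were tried as alternatives. An exact permutation test of 3 libraries against 3 cannot go below p = 0.1, so none was used for single values.

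Members and lists were chosen with earlier results of these data known. Per-library values were given for a fixed panel of members, for every member called in any comparison and for every member with a mean of at least 1 CPM in a group, and fold changes for the 2 genes with the smallest p in MI versus Sham of each partner list. Coordinates are RefSeq gene spans in GRCm38. Levels were not compared between genes, because transcript lengths were not used here.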

Additional observations from a re-analysis of the deposited data

How the results depend on the processing

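The number of members called was 16 in MI versus Sham, 11 in MI_ART versus Sham and 0 in MI_ART versus MI, and the last was 0 under every alternative tried. Library totals without TMM gave 27 and 27 against Sham, and totals without mitochondrial genes, chosen after seeing the data like limma-voom, gave 22 in MI_ART versus Sham. Fitting only the compared groups gave 21 there. With single libraries left out the count ran from 10 to 19 in MI versus Sham and from 5 to 21 in MI_ART versus Sham. Every count against Sham here includes H2-Eb2. In MI versus Sham, those over library totals and without Sham 2 also include H2-M5. Replicate numbers are not stated to pair the samples. No same-numbered pair had a correlation of deviations over 0.1 (highest 0.0932), but deviations from means of 3 libraries cannot show whether samples were paired. Sham 1 correlated best with MI 4 (0.108), not with its own number. Number 4 occurs only in MI 4, so a block on replicate number fits that library by itself and takes it out of the contrasts. The replicate block gave 13 in MI versus Sham and 20 in MI_ART versus Sham, and with it the log2 differences changed sign for H2-Q4 (-0.13), H2-Q7 (-0.24) and Tap2 (-0.14) in MI versus Sham and for Cd74 (0.38), H2-Ab1 (0.22) and H2-D1 (0.18) in MI_ART versus MI. Of the called members in MI versus Sham, it ended the calls of Cd74, H2-Ab1, H2-Ob and Tap1.

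Over library totals, which moved the median of all genes to 0.88 and 0.75, the sign changed in MI versus Sham for Erap1 (0.34), H2-K2 (0.75), H2-Ke6 (0.11), H2-Q5 (0.65), H2-Q6 (0.054), H2-T24 (0.17), Rfx5 (0.52) and Rfxap (0.46), and in MI_ART versus Sham for Erap1 (0.55), H2-Ke6 (0.0295), H2-Q6 (0.66), H2-T24 (0.59), Rfx5 (0.56) and Rfxap (0.34). Without mitochondrial genes in the totals it changed for H2-K2 (0.29), H2-Q5 (0.17), Rfx5 (0.0513) and Rfxap (0.00545) in MI versus Sham and for Erap1 (0.21), H2-Q6 (0.31), H2-T24 (0.24) and Rfx5 (0.20) in MI_ART versus Sham. Without MI 4 and MI_ART 3 it changed for H2-Q4 (-0.11), H2-Q7 (-0.26) and Tap2 (-0.11) in MI versus Sham, for H2-K2 (-0.14) in MI_ART versus Sham, and for Cd74 (0.18), Ciita (-0.61) and H2-D1 (0.11) in MI_ART versus MI. With 1 library left out, values crossed 0 in MI versus Sham for H2-K2 (-0.35 to 0.085), H2-Q4 (-0.11 to 0.27), H2-Q5 (-0.40 to 0.10), H2-Q7 (-0.26 to 0.29) and Tap2 (-0.11 to 0.44), in MI_ART versus Sham for H2-K2 (-0.14 to 0.36), H2-Q6 (-0.25 to 0.18) and H2-T24 (-0.54 to 0.0526), and in MI_ART versus MI for Cd74 (-0.41 to 0.38), Ciita (-0.43 to 0.36), H2-Ab1 (-0.61 to 0.23) and H2-D1 (-0.28 to 0.21). The cause of these shifts was not tested. At this depth, a count of 0 allows a level of up to 3 counts, or 0.0322 to 0.0592 CPM across libraries, counting error only.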

Other observations

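Ratios of counts between members of a pair, taken within each library, do not depend on the scaling of libraries. The class II chains kept similar proportions to each other in most libraries. H2-Ab1 over H2-Aa was 0.428, 0.352 and 0.430 in MI_ART, 0.452, 0.435 and 0.524 in MI, and 0.435, 0.356 and 0.354 in Sham. H2-Eb1 over H2-Aa was 0.516, 0.464 and 0.483 in MI_ART, 0.435, 0.452 and 0.594 in MI, and 0.487, 0.512 and 0.471 in Sham. Cd74 over H2-Aa was 1.36, 1.06 and 1.12 in MI_ART, 1.20, 1.11 and 1.33 in MI, and 1.12, 1.23 and 0.895 in Sham. The infarcted and Sham libraries overlapped in all 3 ratios, and MI 4 was the highest library for both beta chains.

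The class I pairs were less even. H2-D1 over H2-K1 was 1.66, 1.8 and 2.00 in MI_ART, 1.75, 1.96 and 2.20 in MI, and 1.48, 1.34 and 1.65 in Sham, with every infarcted library above every Sham library, by a small margin for MI_ART 1. Tap1 over Tap2, the chains of the peptide pump, was 0.800, 0.414 and 0.761 in MI_ART, 0.928, 0.785 and 0.543 in MI, and 0.336, 0.415 and 0.400 in Sham, where only MI_ART 2 lay within the Sham range. H2-Q6 over H2-Q7 was 1.09, 1.12 and 1.06 in MI_ART, 1.15, 0.924 and 0.750 in MI, and 1.44, 1.48 and 2.19 in Sham, with no overlap between infarcted and Sham libraries. The members of each pair were chosen with these data known, the ratios were not tested, and reads shared between H2-Q6 and H2-Q7 or between H2-D1 and H2-K1 may shift them.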
